A study of Caenorhabditis elegans with 6 samples.

Results

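AMP-activated protein kinase (AMPK) is the enzyme with which animal cells answer a shortage of energy. It is assembled from 3 kinds of subunit: a catalytic alpha subunit that carries the kinase domain, a beta subunit that holds the complex together and can bind glycogen, and a gamma subunit whose CBS domains bind AMP, ADP and ATP. The kinase becomes fully active once LKB1, encoded in worms by par-4, phosphorylates the activation loop of the alpha subunit. In Caenorhabditis elegans the alpha subunits AAK-1 and AAK-2 help larvae to survive starvation and keep their germ cell precursors from dividing while food is absent. Described here are the 10 genes of this enzyme and its activator among the 45519 genes of the deposited table, chosen by name: the alpha genes aak-1 and aak-2, the beta genes aakb-1 and aakb-2, the gamma genes aakg-1 to aakg-5, and par-4. All 10 were found, and all 10 passed the filter on low values.

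RNA was sequenced from whole larvae halted in the first larval stage (L1 arrest). The mutant strain was linc-133(aqz 3), which carries an allele of a long intergenic noncoding RNA gene, and it was set against the N2 wild type, with 3 libraries of each. Eggs of both strains, taken from populations of mixed stages, had spent 3 days in M9, a salt buffer without food, at 20 °C. The nature of the allele is not given in the labels, and age in hours after hatching is not stated either. Nothing in the labels tells whether the libraries of a strain come from separate cultures. The p-values below therefore cover the variation among these 6 libraries only, some or all of which may be technical.

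The libraries held 16108063 to 18556695 reads on genes. The linc-133 transcript itself had 6, 2 and 2 reads in mutant replicates 1, 2 and 3 and 9, 6 and 5 reads in wild-type replicates 1, 2 and 3, too few to check the genotype. Defining markers of body wall muscle, neurons, intestine, epidermis and pharynx had reads in every library, as whole larvae should have, whereas the 6 vitellogenin genes of adult yolk all averaged under 1 FPKM. Germline and early embryo markers also had reads in every library. Germline markers summed to 110 to 142 FPKM in the mutant and 84.9 to 132 FPKM in the wild type. Early embryo markers summed to 246 to 278 FPKM in the mutant and 201 to 307 FPKM in the wild type. FPKM (fragments per kilobase of gene, scaled to library size) is a level per gene length, so that levels of different genes can be set side by side. Of the mutant libraries, replicate 3 had the highest marker sums of body wall muscle, pharynx, intestine and neurons, and the lowest of epidermis and early embryo. Intestine markers summed to 547, 708 and 829 FPKM in mutant replicates 1, 2 and 3, against 626 to 756 FPKM in the wild type. Neuron markers summed to 181, 196 and 226 FPKM in these mutant libraries, against 163 to 180 FPKM in the wild type. Epidermis markers summed to 147, 126 and 100 FPKM, against 87.6 to 146 FPKM in the wild type. The summed level of unc-54, myo-3 and unc-15, which encode thick filament proteins of body wall muscle, was 1234, 1448 and 3381 FPKM in mutant replicates 1, 2 and 3, against 1723 to 2006 FPKM in the wild type. That of the pharynx markers myo-1, myo-2 and pha-4 was 373, 293 and 712 FPKM in mutant replicates 1, 2 and 3, against 313 to 451 FPKM in the wild type. Not all muscle genes varied as much. The standard error of the log2 change between the strains was 0.39 for unc-54 and 0.34 for unc-15. It was 0.12 for tni-1, 0.13 for lev-11 and 0.24 for tnt-2, but 0.38 for the pharynx marker myo-2. The genes tni-1, lev-11 and tnt-2 are examples from outside the marker lists. This standard error pools both strains and is not the spread of the mutant libraries alone. Whether the marker sums follow the trend on gene length described below was not tested. In whole larvae, fewer cells of a type and less RNA per cell cannot be told apart.

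None of the 10 genes passed the test between the strains. In limma on log2(FPKM + 1), with Benjamini-Hochberg adjustment over 16794 tested genes, 0 of 10 had an adjusted p under 0.05, and the lowest was 0.405. Over all tested genes the share called was 0%. An unadjusted p under 0.05 was reached by 0 of the 10 genes, against 13.7% of all tested genes, and an unadjusted p under 0.1 by 3, against 22.3% of all tested genes. In 2 of the 10 genes, aak-2 and aakg-2, mutant and wild-type values did not overlap, which was so in 20% of all tested genes. Without mutant replicate 3, 4 of the 10 had an unadjusted p under 0.05 in limma (aak-2, aakg-1, aakg-4 and par-4), each with a lower mean in the mutant, where the share over all tested genes was 17.4%. Without mutant replicate 1 it was 1 of the 10 (aakb-2), against 16.9% of all tested genes. The mean log2 change was positive in 5 genes and negative in 5, with a median of -0.028, beside a median of -0.00147 over all tested genes. The median size of the change without its sign was 0.20 in these genes and 0.24 over all tested genes.

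**Figure D1:**
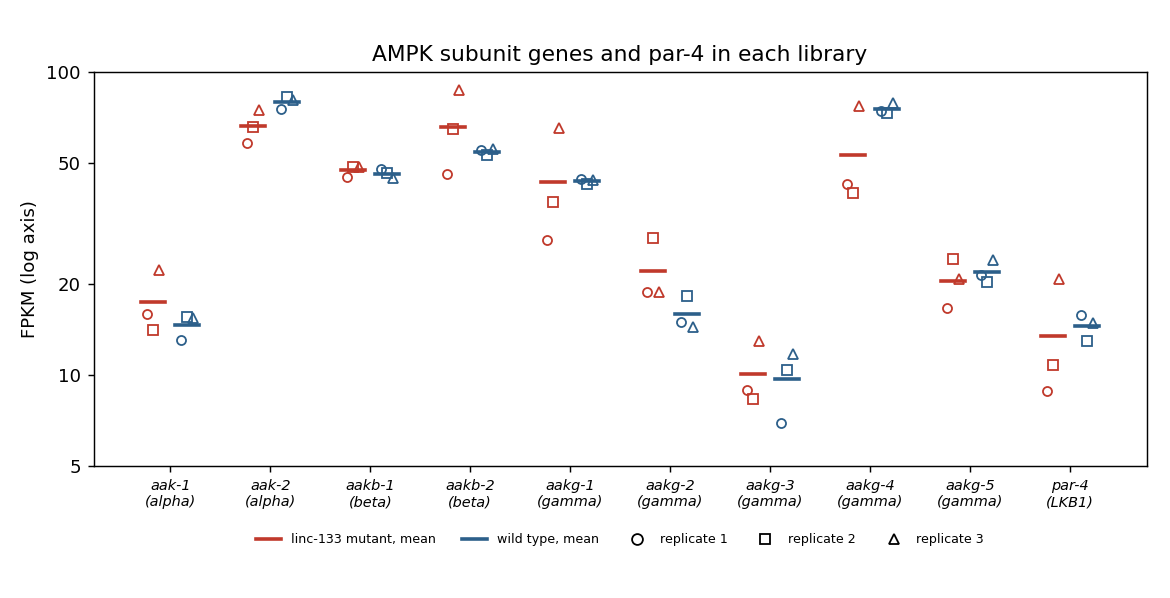
FPKM (log axis) of the 10 genes in each library, mutant in red left of the wild type in blue; symbols give the replicate and bars the mean. The wild-type points lie close together in most genes, whereas mutant replicate 3 is the highest mutant library in 7 of the 10.

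The catalytic subunit genes came first. aak-2 (gene 181727, chromosome X, 16796087 to 16803404, plus strand of WBcel235) encodes the alpha subunit known for its role in long life under energy stress and in the dauer larva. It had the highest level of the 10 genes, above 89.1% of the tested protein-coding genes. It measured 58.4, 65.9 and 74.8 FPKM in mutant replicates 1, 2 and 3, against 75.5, 82.4 and 81.0 FPKM in wild-type replicates 1, 2 and 3. All mutant values were thus below all wild-type values, though by a narrow gap. The highest mutant value and the lowest wild-type value had 95% counting intervals of 72.1 to 77.6 FPKM in the mutant and 73.0 to 78.1 FPKM in the wild type, which overlap. The mean was 66.4 ± 8.23 FPKM in the mutant and 79.6 ± 3.64 FPKM in the wild type (SD, n = 3 each), and the log2 change of -0.27 ± 0.13 (SE) had an adjusted p of 0.433 in limma. The 95% interval of this change corresponds to 0.666 to 1.04 times the wild-type level.

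aak-1 (gene 176230, chromosome III, 8756983 to 8761092, minus strand) encodes the other alpha subunit, which acts beside AAK-2 in the arrest of germ cells. It measured 15.9, 14.1 and 22.2 FPKM in mutant replicates 1, 2 and 3, against 13.0, 15.5 and 15.4 FPKM in the wild type. The groups overlapped, with mutant replicate 2 within the wild-type range. Mutant replicates 1 and 3 lay above all wild-type libraries, mutant replicate 1 by less than the counting error. The log2 change was 0.21 ± 0.19 (SE), with an adjusted p of 0.676 in limma. It was 0.34 and 0.031 when mutant replicates 2 and 3 were left out in turn, and 0.13 when wild-type replicate 1 was.

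aak-2 made up most of the alpha transcript in both strains. Its share of the summed FPKM of aak-1 and aak-2 was 78.6%, 82.4% and 77.1% in the mutant libraries, against 85.3%, 84.2% and 84.0% in the wild-type libraries. All mutant shares were below all wild-type shares, with a mean difference of -5.10 percentage points. The two-sided exact permutation p was 0.1, the smallest that 3 libraries against 3 allow, and 0.35 after adjustment over 7 shares. The sum of both alpha genes was 83.8 ± 11.8 FPKM in the mutant and 94.3 ± 5.05 FPKM in the wild type (SD, n = 3 each; exact permutation p = 0.3), with overlapping libraries.

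**Figure D2:**
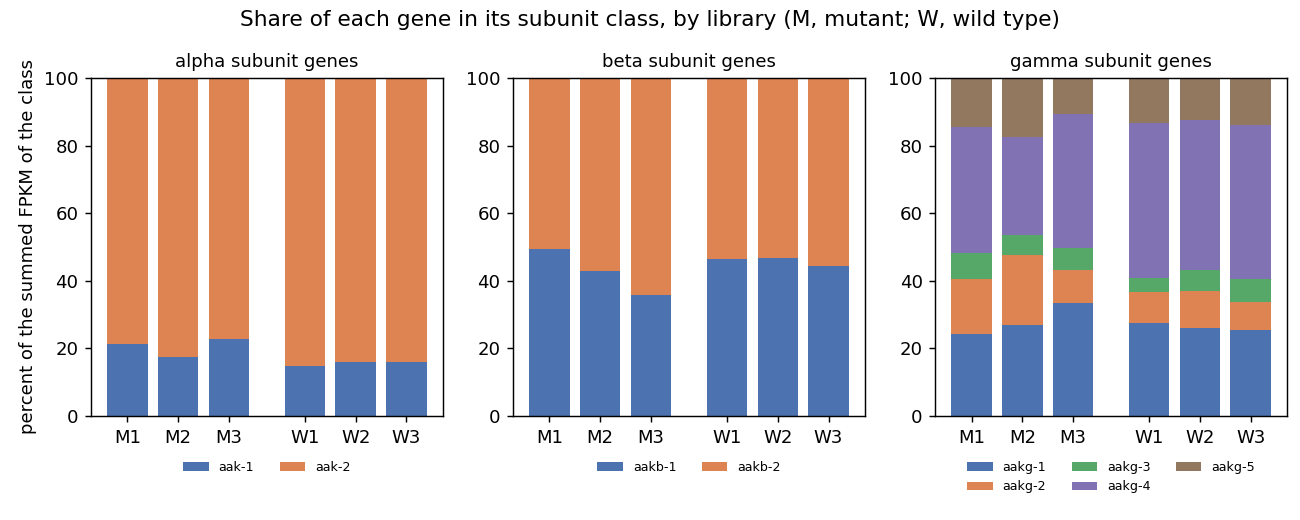
Percent of the summed FPKM of each subunit class held by each gene, by library (M1 to M3, mutant; W1 to W3, wild type). aak-2 takes 77.1% to 82.4% of the alpha class in the mutant and 84.0% to 85.3% in the wild type, and aakg-4 takes less of the gamma class in each mutant library than in any wild-type library.

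Both beta subunit genes were well expressed, aakb-1 above 82.3% and aakb-2 above 86.5% of the tested protein-coding genes. The deposited table annotates a glycogen recognition site in both. aakb-1 (gene 181492, chromosome X, 13755771 to 13759015, plus strand) had the smallest standard error of the 10 genes. It measured 45.1, 48.7 and 48.7 FPKM in mutant replicates 1, 2 and 3, against 47.7, 46.4 and 44.5 FPKM in the wild type. Its log2 change was 0.039 ± 0.11 (SE; adjusted p = 0.915 in limma), and the 95% interval of 0.856 to 1.23 times the wild-type level is the narrowest of the 10.

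aakb-2 (gene 176552, chromosome III, 11237143 to 11239204, plus strand) differed mainly between the mutant libraries. It measured 46.1, 64.9 and 86.9 FPKM in mutant replicates 1, 2 and 3, against 55.1, 53.0 and 55.4 FPKM in the wild type. One mutant library lay below the wild type and the others above it. The SD was 20.4 FPKM in the mutant and 1.33 FPKM in the wild type, around means of 66.0 FPKM in the mutant and 54.5 FPKM in the wild type (n = 3 each). The log2 change was 0.22 ± 0.23 (SE; adjusted p = 0.706 in limma). Without mutant replicate 3 it was 0.0060, and without mutant replicate 1 it was 0.46, with unadjusted and adjusted p of 0.0320 and 0.252 in limma. The share of aakb-2 in the beta class was 57.3 ± 6.75% in the mutant and 54.1 ± 1.17% in the wild type (exact permutation p = 0.6).

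On the log2 scale, the largest changes among the 10 genes in either direction were those of the gamma genes aakg-4 and aakg-2. aakg-4 (gene 187928, chromosome X, 2314894 to 2319338, minus strand) was the most abundant gamma gene in the wild type. It measured 42.7, 39.9 and 77.1 FPKM in mutant replicates 1, 2 and 3, against 74.1, 72.9 and 78.8 FPKM in wild-type replicates 1, 2 and 3. Mutant replicates 1 and 2 lay far below the wild type, and mutant replicate 3 within its range. The means were 53.2 ± 20.7 FPKM in the mutant and 75.3 ± 3.11 FPKM in the wild type (SD, n = 3 each), 0.707 times the wild-type mean. The log2 change was -0.56 ± 0.25 (SE), with a 95% interval of -1.16 to 0.050 and an adjusted p of 0.405 in limma, the lowest of the 10. Without mutant replicate 3 the change was -0.85, with an unadjusted p of 0.000296 and an adjusted p of 0.119. Without mutant replicates 1 and 2 in turn it was -0.43 and -0.38.

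aakg-4 also took a smaller share of the gamma class. It held 37.1%, 28.9% and 39.6% of the summed gamma FPKM in the mutant libraries, against 45.8%, 44.3% and 45.6% in the wild-type libraries. The groups did not overlap, also in mutant replicate 3, where the level of aakg-4 itself was like that of the wild type. In that library the gamma sum was higher, at 194.5 FPKM against 161.7 to 172.9 FPKM in the wild type. aakg-1 alone measured 65.0 FPKM there, against 42.6 to 44.3 FPKM in the wild type. Shares without the trend on gene length described below were not computed. The mean difference in the share of aakg-4 was -10.01 percentage points (two-sided exact permutation p = 0.1, the smallest possible; 0.35 after adjustment over 7 shares).

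aakg-2 (gene 181736, chromosome X, 16866046 to 16869031, minus strand) encodes the gamma subunit of which a constitutively active form is used in worms to switch on AMPK. It lies 62642 bases from aak-2. It measured 18.8, 28.4 and 18.7 FPKM in mutant replicates 1, 2 and 3, against 14.98, 18.2 and 14.4 FPKM in the wild type. All mutant values were above all wild-type values. Mutant replicates 1 and 3 exceeded wild-type replicate 2 by less than the counting error, since the interval of that wild-type library ran from 16.7 to 19.8 FPKM. The means were 21.97 ± 5.57 FPKM in the mutant and 15.9 ± 2.06 FPKM in the wild type (SD, n = 3 each), a ratio of 1.39. The log2 change was 0.43 ± 0.20 (SE; adjusted p = 0.410 in limma), and 0.24 without mutant replicate 2. Its share of the gamma class was 15.5 ± 5.53% in the mutant and 9.55 ± 1.40% in the wild type, and mutant replicate 3, with 9.64%, lay within the wild-type range (exact permutation p = 0.2).

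aakg-1 (gene 3565679, chromosome III, 12537784 to 12575401, minus strand) is the longest of the 10 genes, at 4932 bases of transcript. It is the only gamma gene for which the deposited table lists no CBS domain. It measured 27.9, 37.2 and 65.0 FPKM in mutant replicates 1, 2 and 3, against 44.3, 42.6 and 44.03 FPKM in the wild type. Its mean was nearly equal in the strains, at 43.4 FPKM in the mutant and 43.6 FPKM in the wild type, but its SD was 19.3 FPKM in the mutant and 0.891 FPKM in the wild type. Mutant replicate 3 had 2.33 times the level of mutant replicate 1. The log2 change was -0.10 ± 0.29 (SE; adjusted p = 0.920 in limma). It was -0.43 without mutant replicate 3 and 0.17 without mutant replicate 1.

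The remaining gamma genes, aakg-5 and aakg-3, overlapped between the strains. aakg-5 (gene 174556, chromosome II, 9971035 to 9975125, minus strand) is the only one of the 10 on the chromosome of linc-133, 2.13 Mb away from it. It measured 16.7, 24.1 and 20.7 FPKM in mutant replicates 1, 2 and 3, against 21.5, 20.3 and 24.0 FPKM in the wild type, and its log2 change of -0.10 ± 0.16 (SE) had an adjusted p of 0.822 in limma. It was 0.028 and -0.22 when mutant replicates 1 and 2 were left out in turn, and -0.040 when wild-type replicate 3 was. aakg-3 (gene 189836, chromosome X, 2976448 to 2985272, plus strand) had the lowest level of the 10, above 41.3% of the tested protein-coding genes. It measured 8.95, 8.31 and 13.0 FPKM in mutant replicates 1, 2 and 3, against 6.93, 10.4 and 11.8 FPKM in the wild type. It was the only gene of the 10 whose spread on the log2 scale was not larger in the mutant, with an SD of 0.32 in the mutant and 0.36 in the wild type. Its log2 change of 0.057 ± 0.24 (SE; adjusted p = 0.940 in limma) turned to -0.12 without mutant replicate 3 and to -0.14 without wild-type replicate 1.

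par-4 (gene 180185, chromosome V, 18098676 to 18106868, plus strand) encodes LKB1, first known in worms for its part in the polarity of the early embryo. It measured 8.86, 10.8 and 20.7 FPKM in mutant replicates 1, 2 and 3, against 15.8, 12.9 and 14.9 FPKM in the wild type. Mutant replicates 1 and 2 lay below all wild-type libraries and mutant replicate 3 above them. The means were 13.5 ± 6.35 FPKM in the mutant and 14.5 ± 1.48 FPKM in the wild type (SD, n = 3 each). The log2 change was -0.18 ± 0.30 (SE; adjusted p = 0.829 in limma). It was -0.52 without mutant replicate 3 (unadjusted p = 0.0168, adjusted p = 0.206 in limma) and 0.049 without mutant replicate 1.

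**Figure D3:**
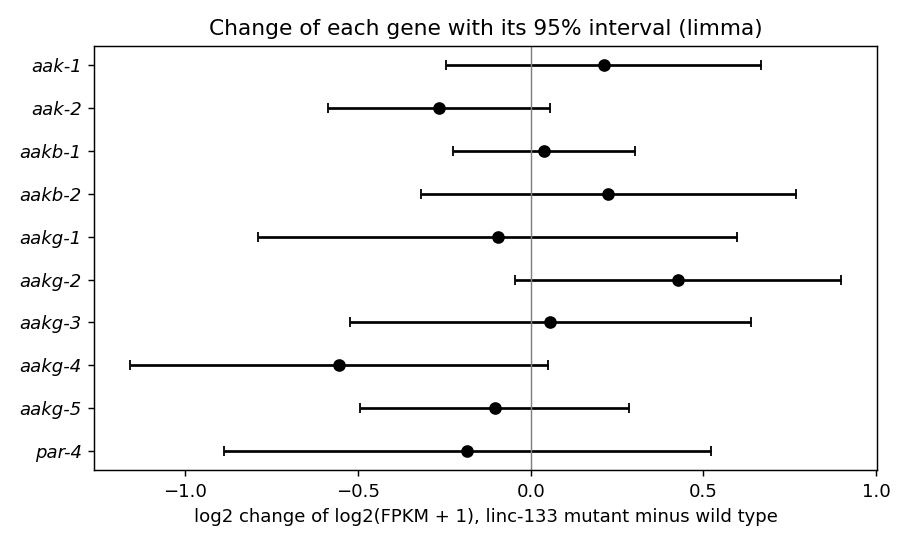
log2 change of log2(FPKM + 1), mutant minus wild type, for each gene, with its 95% interval from limma. All 10 intervals include 0; aakg-4 has the lowest point at -0.56 and aakg-2 the highest at 0.43.

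Ordered by mean level over the 6 libraries, the genes ran aak-2, aakg-4, aakb-2, aakb-1, aakg-1, aakg-5, aakg-2, aak-1, par-4 and aakg-3. Neighbours in this order were mostly not separated in every library. aakb-2 exceeded aakb-1 in 6 of 6 libraries, and aakg-1 exceeded aakg-5 in 6 of 6. aakg-4 exceeded aakb-2 in 0 of 3 mutant libraries and in 3 of 3 wild-type libraries. aakg-5 exceeded aakg-2 in 1 of 3 mutant libraries and in 3 of 3 wild-type libraries. The other 5 pairs of neighbours kept their order in 4 or 5 of the 6 libraries. aak-2 exceeded aakg-4 in 5 of them, mutant replicate 3 being the exception.

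The spread within each strain was then set side by side. The SD of log2(FPKM + 1) was larger in the mutant than in the wild type in 9 of the 10 genes, where the share over all tested genes was 66.2% and over the 6627 protein-coding genes of a similar level 72.2%. The median SD of the 10 genes was 0.33 in the mutant and 0.091 in the wild type, beside 0.28 in the mutant and 0.18 in the wild type over all tested genes. Over the protein-coding genes of a similar level it was 0.24 in the mutant and 0.14 in the wild type. The widest spreads in the mutant were those of aakg-1, par-4, aakg-4 and aakb-2, at 0.61, 0.60, 0.51 and 0.45. Mutant replicate 3 was the highest of the mutant libraries in 7 genes and mutant replicate 2 in 3, whereas mutant replicate 1 was the highest in 0. Over all tested genes these shares were 36.2%, 31.3% and 32.5%. Against the wild-type mean, 8 of the 10 genes were lower in mutant replicate 1 (median log2 difference -0.30), 6 were lower in mutant replicate 2 (median -0.11), and 8 were higher in mutant replicate 3 (median 0.33). The matching shares and medians over all tested genes were not computed, so these values are not shown to be particular to the 10 genes. Medians by gene length are given below.

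Gene length moved with the mutant libraries too. Among tested protein-coding genes over 4 kb, the median log2 difference from the wild-type mean was -0.33 in mutant replicate 1, -0.33 in mutant replicate 2 and 0.33 in mutant replicate 3. Among those under 1 kb it was 0.13, 0.17 and -0.16 in the same libraries, while the wild-type libraries stayed between -0.041 and 0.026 in every length class. Of the 10 genes, aakg-1 is the only one over 4 kb and none is under 1 kb, and 5 measure 2 to 3 kb, a class with medians of -0.067, -0.041 and 0.12 in mutant replicates 1, 2 and 3. With the trend on gene length taken out of each library, the median of the 10 genes was -0.26 in mutant replicate 1, -0.043 in mutant replicate 2 and 0.23 in mutant replicate 3. par-4 then lay at -0.59, -0.36 and 0.37 from the wild-type mean, and aakg-4 at -0.74, -0.87 and -0.081. aakg-1 lay at -0.34, 0.063 and 0.25 and aakb-2 at -0.21, 0.23 and 0.59. The log2 gap between mutant replicates 3 and 1 was 0.59 in aakg-1 after this step and 1.19 before it. In par-4 it was 0.96 after and 1.14 before, in aakg-4 0.65 and 0.84, and in aakb-2 0.80 and 0.90, in the same order. The marker sums of body wall muscle, pharynx, intestine and neurons given above were also highest in mutant replicate 3. Those of epidermis and early embryo were the lowest of the mutant libraries there. Their relation to gene length and their part in the spread were not tested.

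**Figure D4:**
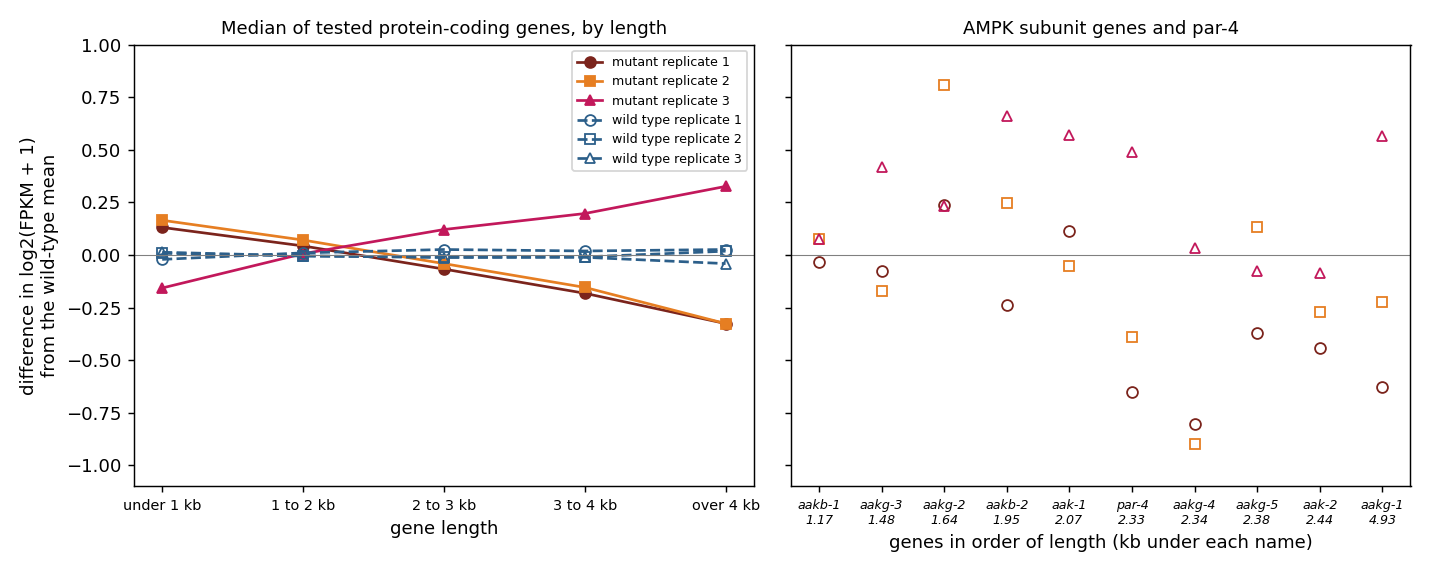
Left, median difference in log2(FPKM + 1) from the wild-type mean over tested protein-coding genes, by gene length and library; right, the same difference for the 10 genes in the mutant libraries, ordered by length. In genes over 4 kb the median is -0.33 in mutant replicates 1 and 2 and 0.33 in mutant replicate 3, and most of the 10 genes show mutant replicate 3 above mutant replicate 1.

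Genes whose profile over the 6 libraries was closest were sought for aak-2 and par-4 by the root mean square difference of log2(FPKM + 1), each gene centred on its own mean. For aak-2 these were the actin gene act-4, F32B5.7 and arrd-18, at differences of 0.0223, 0.0309 and 0.0320, where the median over all tested genes was 0.328. For par-4 they were the noncoding RNA gene Y54G11A.20, the gamma subunit gene aakg-1 and sul-3, at 0.0510, 0.0878 and 0.0889, beside a median of 0.471. The par-4 and aakg-1 profiles thus lay close to each other over these 6 libraries, which share the spread of the mutant libraries described above. The trend on gene length was left in, and the search was not repeated without it. With the trend taken out, mutant replicate 2 differed from the wild-type mean by -0.36 in par-4 and 0.063 in aakg-1.

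The partners of LKB1 and other genes around AMPK were then counted in 5 lists. The LKB1 complex holds the pseudokinase STRAD (strd-1) and the scaffold MO25 (mop-25.1, mop-25.2 and mop-25.3), and ckk-1 encodes the calcium-dependent kinase whose mammalian counterpart can activate AMPK. Of these 5 genes 0 passed in either direction, and their median log2 change was 0.014, with values from -0.031 without mutant replicate 2 to 0.093 without mutant replicate 1. The most abundant, mop-25.1, measured 43.3, 55.02 and 59.96 FPKM in mutant replicates 1, 2 and 3, against 48.8, 52.9 and 54.8 FPKM in the wild type. The lowest p was that of ckk-1, at 33.6 ± 9.44 FPKM in the mutant and 27.3 ± 2.46 FPKM in the wild type (SD, n = 3 each; adjusted p = 0.633 in limma). Its mutant mean rested on replicate 3, at 44.4 FPKM.

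The kinases related to AMPK by their kinase domain are par-1 (MARK), sad-1, kin-29 (salt-inducible kinase), unc-82 (NUAK) and pig-1 (MELK). Of these 5 genes 0 passed, and their median log2 change was -0.13, with values from -0.46 without mutant replicate 3 to -0.040 without mutant replicate 1. par-1, which like par-4 sets the polarity of the embryo, measured 31.4, 36.2 and 65.8 FPKM in mutant replicates 1, 2 and 3, against 48.98, 51.03 and 50.95 FPKM in the wild type. The mutant libraries again lay on both sides of the wild type. kin-29, which had the lowest p, measured 24.3, 33.7 and 42.8 FPKM in the mutant, against 36.6, 40.8 and 44.04 FPKM in the wild type (adjusted p = 0.602 in limma). The list median differed from the wild-type mean by -0.59, -0.25 and 0.37 in mutant replicates 1, 2 and 3, in the order seen in the 10 genes. The trend on gene length was not taken out of these values. All tested protein-coding genes over 4 kb had medians of -0.33, -0.33 and 0.33 in the same libraries. The part of gene length in the list median was not tested.

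The list of AMPK substrates held the lipases atgl-1 and hosl-1, the acetyl-CoA carboxylase genes pod-2 and T28F3.5, the transcriptional coactivator crtc-1, the autophagy kinase unc-51, the raptor gene daf-15, the Rab regulator tbc-7 and the transcription factor daf-16. For acetyl-CoA carboxylase, raptor and the counterpart of UNC-51, phosphorylation by AMPK is best known from mammals. A further symbol of the list, acc-2, is a channel gene in worms and not a carboxylase, and was left out where 9 genes are given. Of the 9 genes 0 passed, and the median log2 change was 0.056 (0.085 with acc-2). With acc-2, the median was 0.17, 0.15 and -0.19 when mutant replicates 1, 2 and 3 were left out in turn, so that its direction rested on mutant replicate 3. Leaving out wild-type replicate 1 gave 0.035 and leaving out wild-type replicate 3 gave 0.056. unc-51, the most abundant, measured 76.9, 79.7 and 124.5 FPKM in mutant replicates 1, 2 and 3, against 81.99, 93.6 and 88.4 FPKM in the wild type. daf-16, the forkhead factor of insulin signalling, had the lowest p and measured 64.5, 60.2 and 104.9 FPKM in the mutant, against 65.4, 63.4 and 61.9 FPKM in the wild type (adjusted p = 0.703 in limma). In both genes mutant replicate 3 alone stood above the wild type.

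Of 13 genes that act with or against AMPK, 0 passed and the median log2 change was 0.068, with values from 0.030 without mutant replicate 3 to 0.23 without mutant replicate 1. They included the calcineurin genes tax-6 and cnb-1, which act against AMPK on CRTC-1, the CREB gene crh-1, and genes of the TOR pathway. The most abundant, tax-6, measured 91.6, 146 and 202 FPKM in mutant replicates 1, 2 and 3, against 130, 154 and 173 FPKM in the wild type. The Rag GTPase gene ragc-1 had the lowest p, at 64.95 ± 9.58 FPKM in the mutant and 54.2 ± 3.73 FPKM in the wild type (SD, n = 3 each; adjusted p = 0.496 in limma).

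The last list held enzymes that buffer ATP or interconvert adenine nucleotides, which set the AMP that the gamma subunits read. Of the 7 genes listed, 0 passed, and the median log2 change was 0.20. This median was 0.027 when mutant replicate 2 was left out. It was 0.34, 0.072 and 0.11 when wild-type replicates 1, 2 and 3 were left out in turn. Arginine kinases store phosphate on arginine as an energy reserve. The arginine kinase gene F46H5.3 was the most abundant by far, at 1711 ± 325 FPKM in the mutant and 1709 ± 57.2 FPKM in the wild type (SD, n = 3 each). The adenylate kinase gene let-754 was the only gene of the 5 lists whose libraries did not overlap and the only one with an unadjusted p under 0.05. It was thus 1 of 40 genes tested in them (acc-2 included), where the shares over all tested genes were 20% and 13.7%. It measured 32.9, 45.5 and 34.7 FPKM in mutant replicates 1, 2 and 3, against 29.98, 26.4 and 26.7 FPKM in the wild type. Its log2 change was 0.42 ± 0.16 (SE; unadjusted p = 0.0331, adjusted p = 0.324 in limma).

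**Figure D5:**
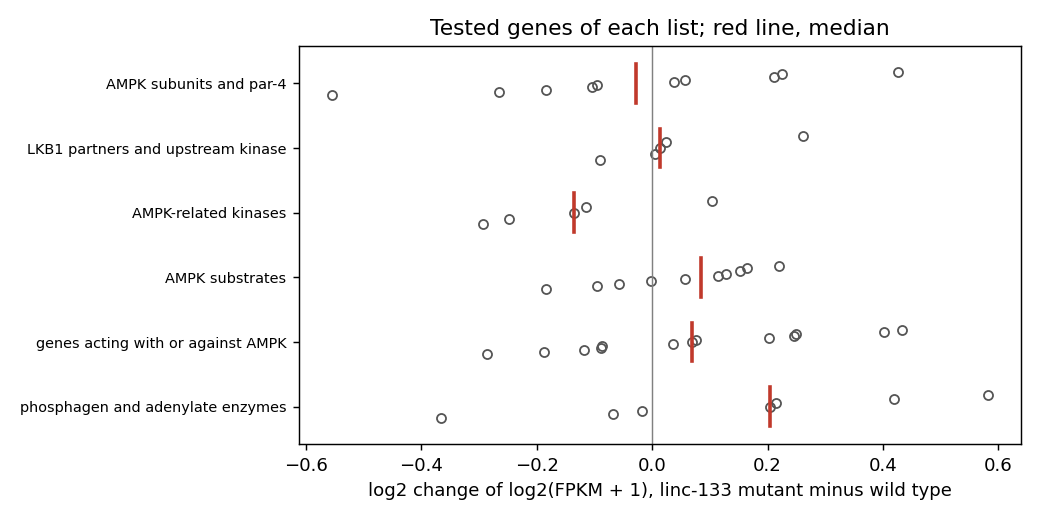
log2 change of log2(FPKM + 1), mutant minus wild type, of the tested genes of each list (circles) with the list median (red line); acc-2 is included among the substrates. The medians lie between -0.13 and 0.20, and 0 of the genes passed an adjusted p of 0.05.

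The genomic setting of the 10 genes limits a few of these values. Of the 10, 5 lie on chromosome X and 3 on chromosome III. Exonic bases are shared with another gene in 4 of them in the Ensembl annotation of WBcel235. The strand setting is not given, so reads there may not have been assigned by strand. The overlap was 100 of 2337 bases between aak-1 and sma-2, 78 of 2431 bases between aak-2 and mec-4, and 21 of 2340 bases between aakg-4 and hum-6, each on the opposite strand. In aakb-2, 109 of 1950 bases overlap the noncoding gene Y47D3A.35, which lies on the same strand and was listed at 0 FPKM. Behind each value of the 10 genes stood 195 to 5001 reads in a library.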

How the data were processed

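Values deposited by the authors are FPKM per gene, per the file name, beside gene length, position and type. Per the submitters' processing notes, Bowtie 0.12.2, STAR 2.5.2b, StringTie and the build WBcel235 were used; their roles, the annotation release and the strand setting are not given. Per the labels' protocols, a TruSeq RNA kit was used. Multiplied by gene length, 100% of 131954 FPKM values above 0 lay within 0.01 of whole multiples of 1 read, which gave reads per gene. 1 read was worth what a library of 0.900 to 1.12 times the recovered total would give, so a scaling between libraries is part of the deposited FPKM.

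The 16794 genes averaging 1 FPKM or more were tested on log2(FPKM + 1) with limma 3.58.1 (R 4.3.3), using trend and robust moderation, all 6 libraries and the strain as the only term; P-values were adjusted by Benjamini-Hochberg over all tested genes. Fold changes on this scale understate those of low genes. Shares were compared by two-sided exact permutation. Counting intervals are exact Poisson 95% intervals and cover counting error only. The genes, lists and tests were chosen with earlier results of these data known. Named from each list are its most abundant gene and its gene of lowest p; overlaps with other genes and the trend on gene length (lowess over protein-coding genes) were examined after the values were seen.

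On simulated data of 16437 genes for this comparison, limma called 15.9% of 88 genes with a 2-fold change and 53.2% of 109 with a 4-fold change, with 9 false calls. In this simulation most genes with a 2-fold change were thus not called. The estimated changes of all 10 genes were under 2-fold. The limma interval of aakg-4 reached -1.16 on the log2 scale, beyond 2-fold. The simulated noise was independent between libraries and equal in both strains. In the real data the SD was larger in the mutant in 66.2% of tested genes. There even hsp-16.2, with a log2 change of 3.46, was not called (adjusted p = 0.159 in limma). The simulated shares are therefore not a detection limit for the real comparison. Alternatives tried were other pseudocounts and filters, limma without trend or robust moderation, quantile scaling, a replicate block, voom on recovered reads, protein-coding genes alone, and leaving out each library.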

Additional observations from a re-analysis of the deposited data

How the results depend on the processing

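None of the 10 genes and 0 genes of the 5 lists passed an adjusted p of 0.05 under any of the 19 alternatives run across all genes, 6 of which leave out 1 library. The lowest adjusted p of the 10 genes was 0.102, for aakg-4 in voom with quality weights, and aakg-4 ranged from -0.85 to -0.38. aak-2 stayed between -0.35 and -0.18 and aakg-2 between 0.24 and 0.52. The count over all genes, 0 in the main test, was 23 in limma without trend or robust moderation, 1 with a filter at 10 reads, 1 among protein-coding genes, 4 in voom on recovered reads and 289 in voom with quality weights (weights of 0.417 for mutant replicate 3 and 3.26 for wild-type replicate 2); it was 0 to 0 without 1 library. The filter at 10 reads, the quality weights, the values without the authors' scaling and those without the length trend were added after seeing the data. Directions changed for aakb-1 without the length trend (-0.012) and aakg-3 with quality weights (-0.12); the cause was not tested. Without 1 library, aakg-1 ranged from -0.43 to 0.17, aakg-5 from -0.22 to 0.028, par-4 from -0.52 to 0.049 and aakg-3 from -0.14 to 0.20, and the median of the 10 genes from -0.12 to 0.10. Differences in share ranged from -0.28 to 6.47 points for aakb-2, from -0.63 to 3.94 for aakg-1 and from -0.59 to 2.82 for aakg-5, but from -6.62 to -3.97 for aak-2 and from -12.2 to -6.86 for aakg-4. With the replicate number as a block, which the data do not back as a pairing (correlations of deviations of 0.0162, -0.0344 and 0.0288), 0 genes passed, with adjusted p of 0.432 for aakg-4 and 0.403 for aakg-2. The 10 genes each had at least 195 reads in every library. In 8 of them, all but aakb-1 and aakg-2, mutant replicate 3 lay outside the counting intervals of both other mutant libraries. In aakg-5 it lay between those libraries. The share of all tested genes for which this holds was not computed, so the count cannot be read as particular to the 10 genes.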
